A study of Mus musculus with 28 samples.

Results

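Aminoacyl-tRNA synthetases were followed through ribosome profiling data from motor neuron-like MN1 cells and cultured mouse cortical neurons. The 36 genes were taken by name for the enzymes they encode, by a rule that holds no measured value, and all 36 were found among the 45513 genes counted. They comprised 20 genes for cytosolic enzymes, 15 genes for mitochondrial enzymes and Lars2, the gene for the mitochondrial leucine enzyme, which was described apart because of its unusual read number.

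The study asked which mRNAs change in translation when human TDP-43, an RNA-binding protein linked to amyotrophic lateral sclerosis, or its patient variant A315T is overexpressed. MN1 cells, a clonal line fused from mouse motor neurons and neuroblastoma cells and used at passages 10 to 12, carried a transiently transfected plasmid for GFP (control), for hTDP-43 or for its A315T variant, with 2 cultures each. Cortical neurons were prepared at embryonic day 16 from C57BL/6J embryos of non-transgenic mice (WT, 2 cultures) and of hemizygous mice that expressed hTDP-43 or hTDP-43 A315T from a prion protein promoter transgene (3 cultures each). Each culture gave a footprint library, made from the pieces of mRNA that ribosomes protect from nuclease, and a library of poly(A)-selected total mRNA, which made 28 libraries. The neurons were harvested after 14 days in culture and had received Ara-C, an inhibitor of cell division. MN1 cells received the elongation inhibitor cycloheximide (100 µg/ml, 3 min) before lysis and neurons did not, and the cell types were processed on different dates, so that cell type, treatment and date cannot be told apart.

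Aminoacyl-tRNA synthetases join each amino acid to its tRNAs and so supply the substrates of translation. The cytosol and the mitochondrion use largely separate sets of these enzymes, and the mitochondrial enzymes are encoded in the nucleus and imported. Gars and Kars are exceptions, since each gene gives both the cytosolic and the mitochondrial enzyme for glycine and lysine. Some cytosolic synthetases are held together with the scaffold proteins Aimp1, Aimp2 and Eef1e1 in the multi-synthetase complex. Many cytosolic synthetase genes are targets of ATF4, the transcription factor of the amino acid response. Mutations in Gars and other members cause inherited peripheral neuropathy, and mutations in mitochondrial members cause disorders of brain and other tissues.

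Assigned reads ranged from 166064 to 6969578 per library. The labelled cell types were checked against marker genes in total mRNA. The summed level of 9 neuronal markers was 170 to 231 in MN1 libraries and 1000 to 1494 in neuron libraries, in RPKM (reads divided by exon length and by the TMM-scaled library size), the unit used for all levels here. Markers of dividing cells summed to 65.5 to 100 in MN1 cells and to 0.35 to 0.99 in neurons, and motor neuron markers to 14.9 to 23.7 and to 1.72 to 3.20. In MN1 total mRNA of A315T and hTDP-43, Slc18a3 and Isl1 had enough reads to be tested, while Chat, Slc5a7, Mnx1 and Lhx3 did not. Astrocyte markers summed to 3.17 to 10.1 and oligodendrocyte markers to 5.75 to 9.42 in the neuron cultures. In bulk cultures, fewer cells of a type and less RNA per cell cannot be told apart, and the part of these other cells in the differences below was not tested.

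The cytosolic enzymes spanned a wide range of levels in total mRNA, and most mitochondrial enzymes lay near or below the lowest of them. In MN1 cells the highest level was that of Kars, the lysine enzyme (ENSMUSG00000031948, GRCm38 chr8:111993440-112011323, minus strand), with a lowest, median and highest library of 174, 185 and 228. Gars, the glycine enzyme (ENSMUSG00000029777, chr6:55038001-55079504, plus strand), followed at 158, 178 and 204, and the ranges of the pair overlapped. The lowest cytosolic enzyme in MN1 cells was Qars, the glutamine enzyme, at 8.46, 10.7 and 12.2. Qars thus lay within the range of the mitochondrial enzymes.

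In neurons Gars was the highest member, with a lowest, median and highest library of 81.1, 95 and 120 (n = 8). Nars, the asparagine enzyme, came next at 64.9, 80.1 and 101, and the ranges of Gars and Nars overlapped. The lowest cytosolic enzyme in neurons was Eprs, which joins both glutamate and proline, at 4.29, 6.39 and 8.26. Kars, which led in MN1 cells, reached only 22.2, 31.9 and 40.1 in neurons.

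Among the mitochondrial enzymes, Yars2, the tyrosine enzyme, was highest in MN1 cells at 14.3, 17.6 and 19.1. Cars2, the cysteine enzyme, was highest in neurons at 5.82, 8.53 and 11, and 20.5% of its exon length overlaps the gene Naxd on a count that did not use strand. Wars2, the tryptophan enzyme, was lowest per exon length in both, at 0.932, 1.42 and 2.08 in MN1 cells and at 0.898, 1.24 and 1.84 in neurons. These levels rest on few reads, since Wars2 had 10 to 29 reads in MN1 and 3 to 49 reads in neuron libraries of total mRNA. Levels per exon length depend on how much untranslated sequence an annotation gives a gene. Per coding length Kars was rank 3 and Aars rank 1 of the 20 cytosolic enzymes in MN1 cells, and Nars took rank 1 in neurons. The lowest cytosolic enzymes were then Cars in MN1 cells and Iars in neurons, with Qars at rank 18 and Eprs at rank 13. Among the 15 mitochondrial enzymes Tars2 took rank 1 in MN1 cells and Mars2 in neurons, where Cars2 was rank 8. Wars2 was rank 14 in MN1 cells, above Pars2, and rank 13 in neurons, above Pars2 and Nars2.

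**Figure D1:**
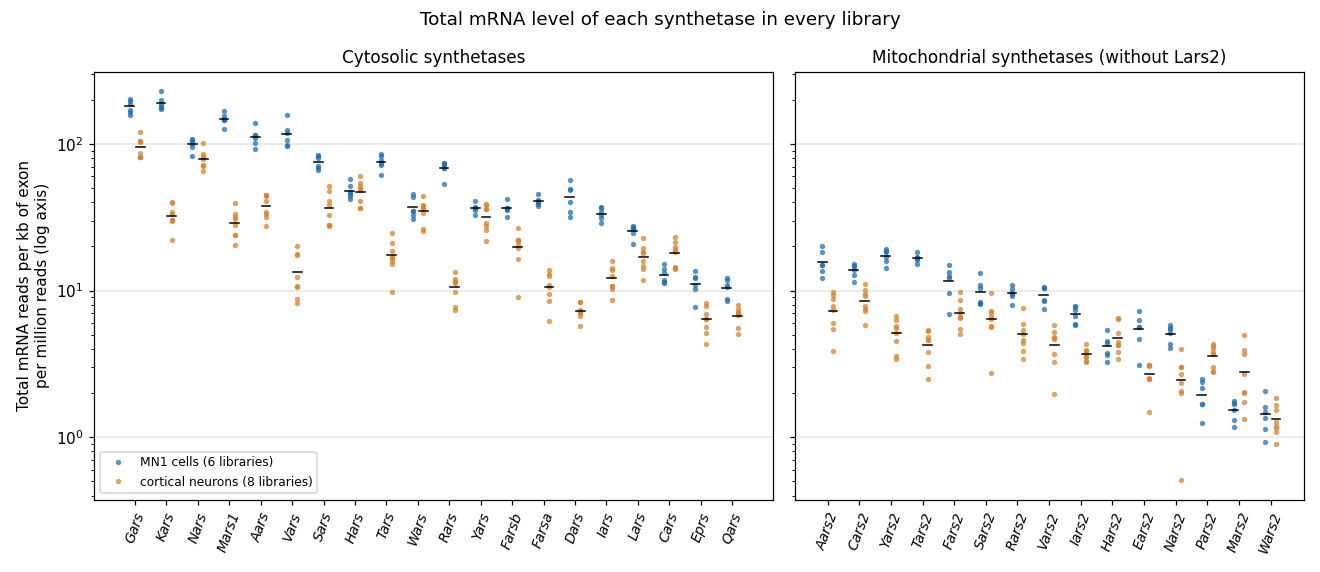
Level of each cytosolic and mitochondrial synthetase in total mRNA (RPKM, log axis), 1 point per library, MN1 cells (n = 6) and cortical neurons (n = 8). Kars, Gars and Mars1 lead in MN1 cells and Gars and Nars in neurons, while Wars2 is the lowest mitochondrial enzyme per exon length in both.

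Where a cytosolic and a mitochondrial enzyme serve the same amino acid, the cytosolic gene was nearly always the higher of the pair. Such pairs were formed for 12 amino acids. Among the total mRNA gaps per exon length the widest was that of methionine in MN1 cells. There Mars1 lay above Mars2 by 6.61 ± 0.16 on the log2 scale (SD, n = 6). In MN1 footprints it was 6.90 ± 0.27. In neuron total mRNA the same gap was 3.47 ± 0.90 (SD, n = 8). For tyrosine the order was the other way around, with a gap of Yars over Yars2 of 1.10 ± 0.09 in MN1 cells and 2.64 ± 0.29 in neurons. Per exon length the cysteine pair was the exception. Cars and Cars2 differed by -0.11 ± 0.20 in MN1 cells and Cars was the higher in only 3 of 6 libraries. In neurons Cars lay above Cars2 in 8 of 8 libraries. The exception depended on the length used, since per coding length the mean MN1 total mRNA level was 23.8 for Cars and 13.7 for Cars2. Which gap was the widest in MN1 total mRNA also depended on the length. Per coding length the mean levels were 185 and 9.80 for Mars1 and Mars2, and 358 and 17.9 for Aars and Aars2. The mitochondrial partner was at 0 reads in 1 neuron footprint library each for Nars2 and Wars2, so no gap was formed there.

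Summed over members, the cytosolic level exceeded the mitochondrial level in every library when Lars2 was left out. The log2 ratio of the sums was 3.43 ± 0.07 in MN1 total mRNA (10.8-fold, SD, n = 6) and 3.02 ± 0.15 in neuron total mRNA (8.11-fold, n = 8). The MN1 libraries ranged from 3.30 to 3.51 and the neuron libraries from 2.85 to 3.23, so the cell types did not overlap. In footprints the ratio was 4.06 ± 0.16 in MN1 cells (16.7-fold) and 3.49 ± 0.24 in neurons (11.2-fold), and again the ranges, 3.85 to 4.27 and 3.02 to 3.77, did not overlap. The separation depended on the measure. Per coding length the footprint ranges overlapped (MN1 libraries from 3.62, neuron libraries up to 3.66). Without Gars and Kars those of total mRNA just overlapped (from 2.85 and up to 2.86). With the difference of member medians the ranges overlapped in footprints (from 3.10 and up to 3.44) and in total mRNA (from 2.12 and up to 2.49). The footprint ratio lay above that of total mRNA from the same culture in 6 of 6 MN1 cultures, by 0.39 to 0.88, and in 7 of 8 neuron cultures. The exception was hTDP-43 replicate 3, where footprints lay below total mRNA with a difference of -0.14. The mitochondrial sum rested on few reads in the shallowest neuron footprint libraries, 58 and 62 reads in hTDP-43 replicates 2 and 3, so that these ratios carry a large counting error. With Lars2 counted as mitochondrial the mean ratios would be -3.31 and 0.15 for total mRNA and footprints of MN1 cells and -5.11 and -1.45 for those of neurons.

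**Figure D2:**
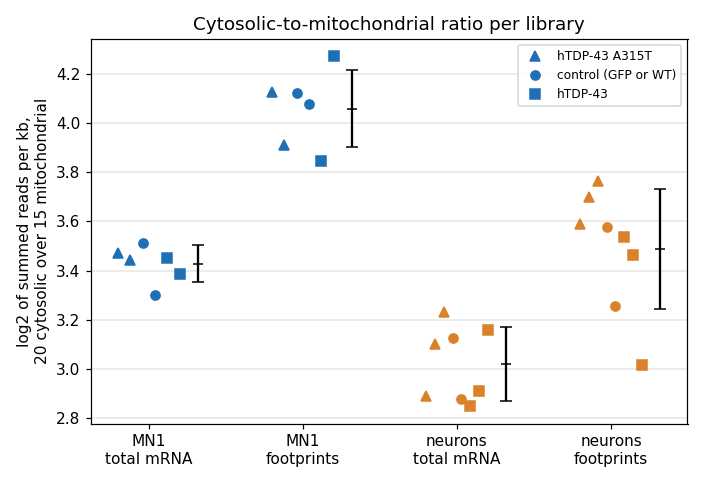
Log2 ratio of the summed level of 20 cytosolic to 15 mitochondrial synthetases, 1 point per library, by cell type and library type, with the mean and SD. Means are 3.43 and 4.06 for total mRNA and footprints of MN1 cells and 3.02 and 3.49 for those of neurons.

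Most synthetases of both classes were higher in MN1 cells than in neurons in total mRNA. Differences were tested across all genes with edgeR's quasi-likelihood test, and a gene was called at a Benjamini-Hochberg adjusted p below 0.05. Of 20 cytosolic members 16 were higher and 1 was lower, with a median log2 fold change of 1.04. The background was high on both sides, since 38.4% of the 12801 genes tested were higher and 42.6% lower in MN1 cells, with a median of -0.09. Of the 15 mitochondrial members 11 were higher and 2 were lower, with a median of 0.97. With the control cultures only (GFP against WT), 11 of 20 cytosolic and 4 of 15 mitochondrial members were higher and none was lower in edgeR's test, against 22.5% of all genes higher and 31.0% lower, so the mitochondrial share was near the background. All MN1 libraries lay above all neuron libraries for 13 cytosolic and 8 mitochondrial members, and the reverse held for 1 mitochondrial member, Pars2.

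Vars, the valine enzyme (ENSMUSG00000007029, chr17:35000987-35016322, plus strand), showed the widest difference. Its level was 96.5, 113 and 157 in the lowest, median and highest MN1 library and 8.27, 11.6 and 20.2 in neurons. The groups were far apart, and Vars was 9.49-fold higher in MN1 cells (log2 3.25 ± 0.19, SE, adjusted p = 5.84e-10, edgeR).

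Next were 3 members of the multi-synthetase complex, Rars, Dars and Kars. Rars, the arginine enzyme (ENSMUSG00000018848, chr11:35808381-35834506, minus strand), lay at 53.4, 70.4 and 74.4 in MN1 cells and at 7.32, 11.4 and 13.4 in neurons. It was 6.68-fold higher in MN1 cells (log2 2.74 ± 0.12, adjusted p = 2.52e-11, edgeR). Dars, the aspartate enzyme (ENSMUSG00000026356, chr1:128363707-128417368, minus strand), lay at 31.5, 44.1 and 56.7 in MN1 cells against 5.75, 7.20 and 8.38 in neurons. Its difference was 6.27-fold (log2 2.65 ± 0.15, adjusted p = 3.82e-10, edgeR). Neither gene had overlapping ranges. Kars was 6.19-fold higher in MN1 cells (log2 2.63 ± 0.13), while Gars, the other gene with a dual product, was only 1.97-fold higher (log2 0.97 ± 0.12).

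All 8 genes of the complex that were measured as members (Dars, Eprs, Iars, Kars, Lars, Mars1, Qars and Rars) were higher in MN1 cells, with a median of 1.99, against the background of 38.4% higher and 42.6% lower. Within the complex the range was wide, from Lars, the leucine enzyme, at 0.67 and Qars at 0.70 to Rars at 2.74. Of the 12 cytosolic members outside it, 8 were higher and 1 lower against the same background, with a median of 0.95. Of these, Tars for threonine (2.20), Farsa and Farsb for the subunits of the phenylalanine enzyme (2.02 and 0.93), Aars for alanine (1.64) and Sars for serine (1.11) were among those higher. Farsa and Farsb form 1 enzyme together, and the difference between their values was not tested.

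The remaining cytosolic members moved little or in the other direction. Nars was 1.32-fold higher in MN1 cells (log2 0.40 ± 0.11, adjusted p = 0.00363, edgeR). Hars for histidine (0.08 ± 0.12), Wars for tryptophan (0.15 ± 0.11) and Yars for tyrosine (0.28 ± 0.14) did not pass the test, and their ranges overlapped between the cell types. With the replicate number as a block, Yars passed (0.34, adjusted p = 0.0104, edgeR), and it passed without WT replicate 2 (0.43) or hTDP-43 replicate 2 (0.35) of the neurons. Cars for cysteine was the only cytosolic member lower in MN1 cells (log2 -0.41 ± 0.15, adjusted p = 0.0201, edgeR). Its level was 11.4, 12.4 and 15.2 in MN1 cells and 14.1, 18.7 and 23.2 in neurons, with overlapping ranges. The call for Cars was lost without MN1 A315T replicate 2 (-0.37), MN1 GFP replicate 1 (-0.36), MN1 hTDP-43 replicate 1 (-0.39) or neuron WT replicate 2 (-0.34).

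Among the mitochondrial enzymes, Tars2 for threonine and Yars2 for tyrosine stood highest in MN1 cells relative to neurons. Tars2 (ENSMUSG00000028107, chr3:95739976-95760206, minus strand) lay at 15.1, 16.7 and 18.3 in MN1 cells and at 2.48, 4.6 and 5.38 in neurons. The ranges were separate and the difference was 4.07-fold (log2 2.03 ± 0.15, adjusted p = 7.33e-09, edgeR). Yars2 was 3.47-fold higher (1.79 ± 0.15), with 3.41, 5.38 and 6.67 as its neuron levels. Vars2 for valine and Aars2 for alanine were each 2.23-fold higher (log2 1.16), and Rars2, Nars2, Ears2 and Iars2, the enzymes for arginine, asparagine, glutamate and isoleucine, lay between 0.97 and 1.04.

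The other mitochondrial members showed smaller differences. Fars2 for phenylalanine (0.84), Cars2 (0.76) and Sars2 for serine (0.75) were higher in MN1 cells. Hars2 for histidine (-0.07 ± 0.16) and Wars2 (0.19 ± 0.25) did not pass. Mars2, the methionine enzyme, was lower in MN1 cells (log2 -0.89 ± 0.27, adjusted p = 0.00645, edgeR), with 1.18, 1.60 and 1.76 in MN1 cells and 1.33, 2.36 and 4.99 in neurons. Pars2, the proline enzyme, was lower as well (log2 -0.88 ± 0.21, adjusted p = 0.00127, edgeR), with separate ranges of 1.25 to 2.49 and 2.78 to 4.32.

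**Figure D3:**
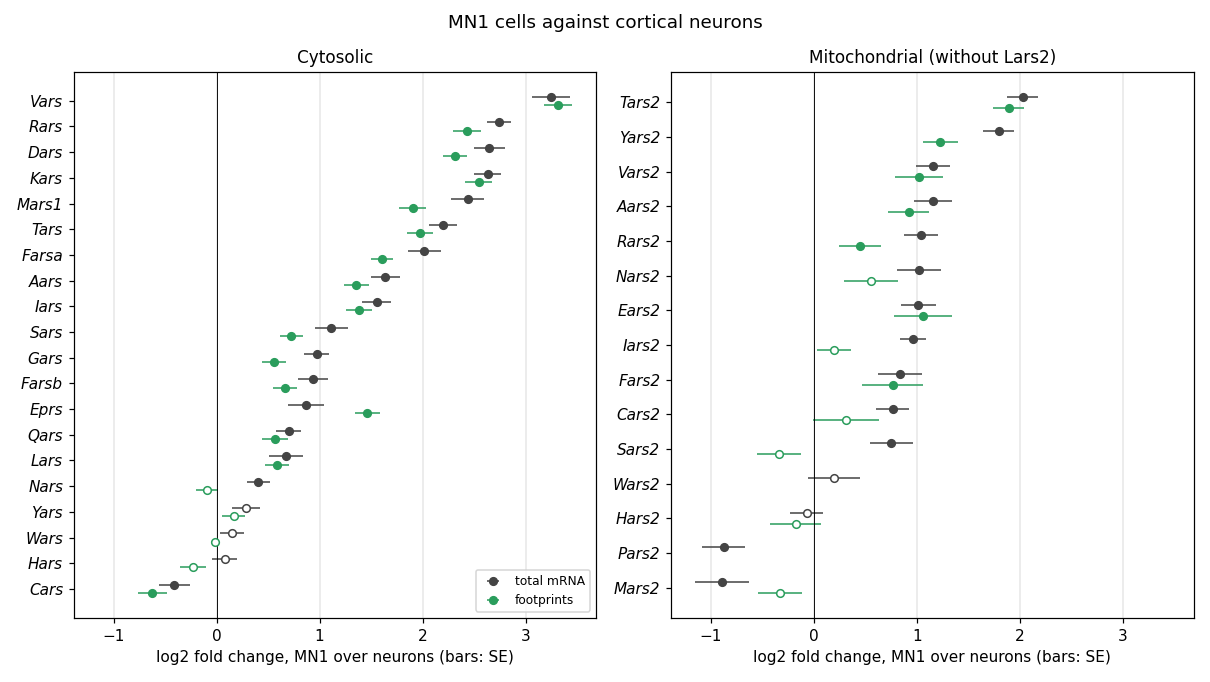
Log2 fold change of MN1 cells over cortical neurons for each member, in total mRNA and in footprints, with the SE as a bar (no bar where the SE could not be derived from the test). Filled points have an adjusted p below 0.05 and open points do not, and Vars, Rars, Dars and Kars lie farthest to the right while Cars lies left of 0.

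Footprints gave a like order for the cytosolic members. Of 20, 15 were higher and 1 was lower in MN1 cells, against 39.9% of 10698 genes tested that were higher and 42.7% that were lower, with medians of 1.04 for the members and -0.05 for all genes. Vars again led with 119, 134 and 174 in MN1 cells and 8.21, 14.6 and 20.5 in neurons, a 9.96-fold difference (log2 3.32 ± 0.14, adjusted p = 2.31e-15, edgeR). Kars (2.54 ± 0.13), Rars (2.43 ± 0.14) and Dars (2.32 ± 0.12) followed. Gars was 1.47-fold higher, with 226, 234 and 258 in MN1 cells and 131, 160 and 223 in neurons, so that its ranges just missed each other. Eprs was 2.76-fold higher in footprints (log2 1.46 ± 0.12), compared with 1.83-fold in total mRNA.

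Cars was lower in MN1 footprints (log2 -0.62 ± 0.14, adjusted p = 0.000313, edgeR), and this call held without any 1 library. Hars (-0.23), Nars (-0.09), Wars (-0.02) and Yars (0.16) did not pass. Hars passed with the replicate block (-0.26, adjusted p = 0.0167, edgeR) and without MN1 A315T replicate 1 (-0.39), MN1 GFP replicate 1 (-0.36), MN1 hTDP-43 replicate 1 (-0.37), neuron A315T replicate 2 (-0.33) or neuron hTDP-43 replicate 3 (-0.35). Nars passed without MN1 A315T replicate 1 (-0.28).

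Only 13 of 15 mitochondrial members had enough footprint reads to be tested, and Pars2 and Wars2 did not. Of the 13, 7 were higher and none was lower in MN1 cells, with a median of 0.55 (edgeR, with 8 higher and 0 lower at an unadjusted p below 0.05 and 5 higher with DESeq2). Over all genes tested 39.9% were higher and 42.7% lower. With the control cultures only (GFP against WT), 4 mitochondrial members were higher. Of all 10177 genes tested 3311 were higher and 3900 lower, so the mitochondrial share was near the background. Tars2 was 3.71-fold higher (log2 1.89 ± 0.15), with 11.4, 15.4 and 16.9 in MN1 cells and 3.77, 3.96 and 5.80 in neurons. Yars2 (1.23 ± 0.17), Ears2 (1.06 ± 0.28), Vars2 (1.02 ± 0.23) and Aars2 (0.92 ± 0.20) were higher, and so were Fars2 (0.77 ± 0.30) and Rars2 (0.44 ± 0.20). Tars2 and Yars2 had separate ranges and the other 13 mitochondrial members overlapped between the cell types. Fars2 was lost without MN1 A315T replicate 1 (0.50), MN1 GFP replicate 1 (0.50), neuron WT replicate 2 (0.44) or neuron hTDP-43 replicate 1 (0.46). Rars2 was lost in 11 of 14 fits without 1 library, with values of 0.25 to 0.44, and kept its call only without neuron A315T replicate 3, hTDP-43 replicate 1 or WT replicate 3. Nars2 (0.55, adjusted p = 0.056, edgeR) passed with the block (adjusted p = 0.0364) and without neuron WT replicate 3 (0.64), while Mars2 (-0.33) was lower without MN1 A315T replicate 1 (-0.61) or neuron hTDP-43 replicate 3 (-0.49).

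Within each cell type, cytosolic members took a larger part of footprints than of total mRNA. In MN1 cells 18 of 20 cytosolic members were higher in footprints and none was lower (edgeR, with 0 lower at an unadjusted p below 0.05, and 20 higher with DESeq2), with a median of 0.50. Over all 10212 genes tested 28.7% were higher and 30.8% lower, with a median of -0.04. Eprs was 2.32-fold higher in footprints (log2 1.22 ± 0.11, adjusted p = 4.56e-08, edgeR). Its lowest, median and highest level was 7.71, 11.5 and 13.5 in total mRNA and 20.4, 25.3 and 27.9 in footprints, each scaled within its library type. Dars (1.12 ± 0.12) and Rars (0.97 ± 0.09) came next, while Kars (0.53 ± 0.09) and Gars (0.45 ± 0.07) lay near the median. Mars1 (0.17, adjusted p = 0.0523) and Wars (0.27, adjusted p = 0.0519) just missed the threshold in edgeR's test, which did not pair the libraries of a culture. Both passed with the culture as block, which pairs them (adjusted p = 0.0268 and 0.0316). Wars also passed without MN1 A315T replicate 1 (0.33) or replicate 2 (0.37), and Yars (0.23) was lost without MN1 GFP replicate 1 (0.21).

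Of the 15 mitochondrial members 2 were higher and 2 lower in MN1 footprints, below the background of 28.7% and 30.8%, with a median of -0.12. Rars2 (0.49 ± 0.14, adjusted p = 0.0053, edgeR) and Yars2 (0.30 ± 0.12, adjusted p = 0.0362) were higher in footprints. Vars2 (-0.54 ± 0.16, adjusted p = 0.00982) and Aars2 (-0.51 ± 0.17, adjusted p = 0.0162) were lower in the same edgeR fit. The remaining 11 did not pass. Yars2 was lost without MN1 A315T replicate 1 (0.34), A315T replicate 2 (0.25), GFP replicate 2 (0.31) or hTDP-43 replicate 1 (0.22). Aars2 was lost without A315T replicate 1 (-0.42) or GFP replicate 2 (-0.29).

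In neurons 19 of 20 cytosolic members were higher in footprints and none was lower (edgeR, with 0 lower at an unadjusted p below 0.05, and 19 higher with DESeq2), with a median of 0.79. Of all 11654 genes tested 28% were higher and 28.3% lower, with a median of 0.01. Dars was 2.75-fold higher in footprints (log2 1.46 ± 0.12, adjusted p = 8.68e-09, edgeR), with 5.75, 7.20 and 8.38 in total mRNA and 14.8, 18.7 and 22.3 in footprints. Rars (1.27 ± 0.15), Tars (1.10 ± 0.14) and Farsb (1.09 ± 0.14) followed, with Nars at 0.98, Gars at 0.90 and Kars at 0.61. Vars, the member that differed most between the cell types, was the one that did not pass (0.24 ± 0.17). Yars (0.37) was lost without neuron A315T replicate 3 (0.31), WT replicate 3 (0.23) or hTDP-43 replicate 3 (0.25).

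Of the mitochondrial members in neurons, 4 of 15 were higher in footprints and 2 were lower, with a median of 0.03, no larger a share than the background of 28% higher and 28.3% lower. Sars2, the serine enzyme (ENSMUSG00000070699, chr7:28741968-28753879, plus strand), was 2.04-fold higher (log2 1.03 ± 0.21, adjusted p = 0.00038, edgeR). It lay at 2.72, 6.60 and 9.70 in total mRNA and at 9.64, 12.4 and 13.7 in footprints, where it rested on 4 to 49 reads per library. Rars2 (1.00 ± 0.22), Yars2 (0.88 ± 0.18) and Iars2 (0.72 ± 0.15) were also higher. Of the exon length of Iars2, 24.2% overlaps 2010103J01Rik or Rab3gap2, so its counts could depend on how reads shared with those genes were treated. Mars2 (-0.63 ± 0.25) and Pars2 (-0.65 ± 0.26) were lower, and each call was fragile. Mars2 was lost without A315T replicate 1 (-0.61), A315T replicate 2 (-0.64) or WT replicate 3 (-0.50). Pars2 was lost without any 1 of 6 cultures, all but WT replicate 3 and hTDP-43 replicate 3, with values of -0.70 to -0.58. Vars2 (-0.39) passed without WT replicate 3 (-0.60) or hTDP-43 replicate 3 (-0.56), and Nars2 (0.51) with the culture as block (adjusted p = 0.0308, edgeR).

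Footprints fall almost wholly in coding sequence, while reads of total mRNA cover whole transcripts. The annotated coding length as a share of exon length was 25.2 to 91.7% (median 62.1%) for cytosolic and 15.6 to 101% (median 45.1%) for mitochondrial members, where the value over 100% arises because exon and coding lengths came from different annotations. Across the 35 members the share and the difference of footprints over total mRNA had a Pearson r of 0.02 and a Spearman rho of 0.08 in MN1 cells and 0.25 and 0.31 in neurons. The points of each set share their libraries, and genes are not independent replicates.

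**Figure D4:**
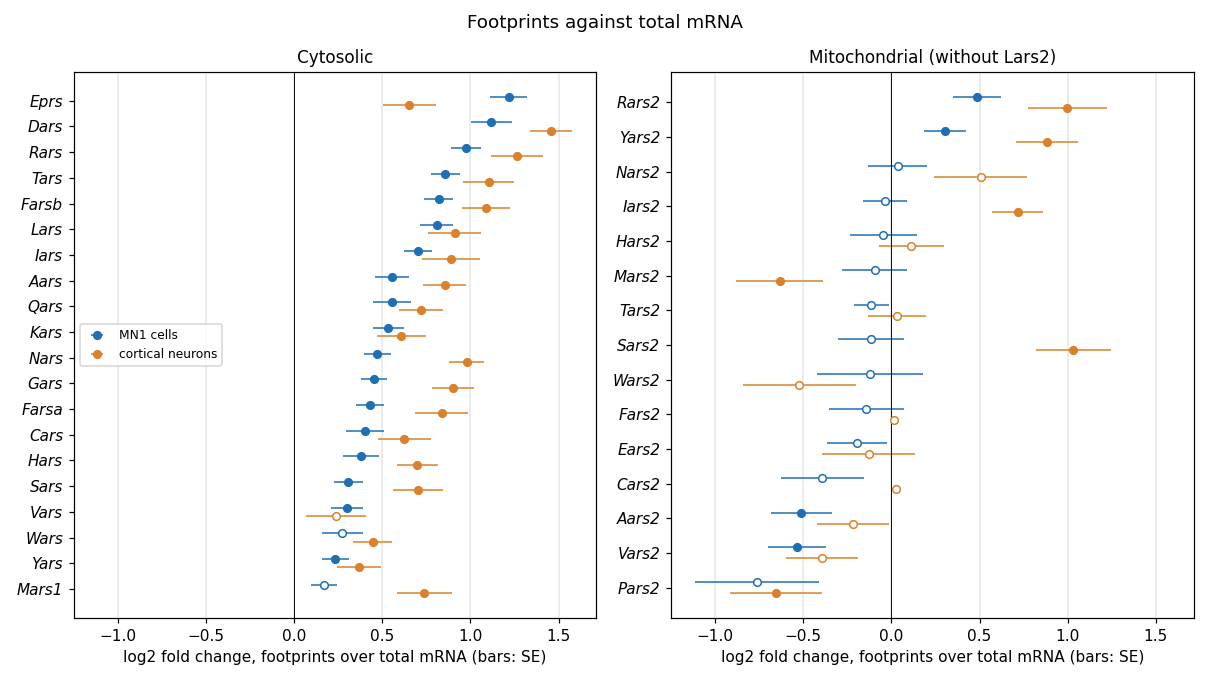
Log2 fold change of footprints over total mRNA for each member in MN1 cells and in cortical neurons, with the SE as a bar (no bar where the SE could not be derived from the test). Filled points have an adjusted p below 0.05 and open points do not, and all 20 cytosolic members lie to the right of 0 in both cell types while the mitochondrial members lie on both sides.

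Whether the footprint-to-mRNA difference itself differed between MN1 cells and neurons was tested as an interaction over all 28 libraries. The scaling set the centre of this comparison, since the median of all 12358 genes was -0.20 with TMM and 0.02 with DESeq2's size factors. With TMM 263 genes were higher and 734 lower in MN1 cells (26.4% of calls higher), and with DESeq2's size factors 417 were higher and 187 lower (69.0% higher). Values below are given as fitted and relative to the TMM median.

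No cytosolic or mitochondrial member was higher in MN1 cells (background 2.13%) in edgeR's test, where only Eprs had an unadjusted p below 0.05 in that direction, and 5 members were lower (background 5.94%). Sars2 differed by -1.23 ± 0.29 (-1.03 relative to all genes, adjusted p = 0.0107, edgeR). The ratio of its footprint level to its mRNA level was 0.701, 0.883 and 1.10 in the lowest, median and highest MN1 culture and 0.994, 1.89 and 4.84 in neurons, so the ranges overlapped slightly. Iars2 differed by -0.88 ± 0.22 (-0.68 relative to all genes, adjusted p = 0.0133), with ratios of 0.778, 0.928 and 1.20 in MN1 cells and 0.873, 1.62 and 2.09 in neurons.

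The 3 cytosolic members with such a difference were Nars, Mars1 and Gars. Nars differed by -0.61 ± 0.15 (-0.41 relative to all genes, adjusted p = 0.0129, edgeR), with ratios of 1.22, 1.31 and 1.59 against 1.47, 1.89 and 2.18. Mars1, the methionine enzyme, differed by -0.65 ± 0.21 (-0.45 relative, adjusted p = 0.0499) and Gars by -0.53 ± 0.17 (-0.33 relative, adjusted p = 0.047). For Kars the difference was -0.20 ± 0.19, close to the median of all genes, and its sign turned with DESeq2's size factors (0.03). Eprs had the highest value of all members (0.48 ± 0.22, adjusted p = 0.192, edgeR). It passed with DESeq2 (0.71, adjusted p = 0.0368).

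These 5 calls depended on the settings. With DESeq2's size factors only Sars2 passed (-1.01, adjusted p = 0.0431, edgeR), and DESeq2 called no member lower. Without MN1 replicate 1 or without MN1 replicate 2, which leaves 1 MN1 culture per genotype, none of the 5 passed. Without neuron replicate 3 of all genotypes Sars2 was -0.95 and was lost, and without neuron replicate 1 Iars2 was -0.70, Nars -0.57 and Mars1 -0.60, all lost. Gars was lost without neuron replicate 1 (-0.49) or 3 (-0.42), and Mars1 also without neuron replicate 2 (-0.75) or 3 (-0.57). With the culture as block Sars (-0.52, adjusted p = 0.0293, edgeR) and Yars2 (-0.69, adjusted p = 0.0483) passed as well. Farsa (-0.72) and Rars2 (-1.06) were lower and Eprs (0.67) higher only without neuron replicate 2, and Yars2 (-0.93) without neuron replicate 1.

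The question of the study, the effect of TDP-43, was asked of each member in 12 comparisons of genotypes, 3 for each cell type and library type. No cytosolic or mitochondrial member was called in any of them by edgeR or by DESeq2. For A315T against GFP edgeR called 0.0115% of all genes in footprints of MN1 cells and 0.00965% in their total mRNA. For hTDP-43 against GFP it called 0.01% in MN1 total mRNA, and 0.0% in the other 9 comparisons. Of 405 tests of members, 4 had an unadjusted p below 0.05 (0.988%), compared with 2.42% of all tests. Cytosolic members ranged from -0.48 to 0.59 and mitochondrial members from -0.79 to 0.75 on the log2 scale. The smallest adjusted p was 0.849.

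The 4 tests involved 3 genes. Wars lay at 0.33 in MN1 total mRNA for A315T against hTDP-43 but at -0.48 in footprints. In total mRNA its levels were 45.7 and 43.2 with A315T, 32.8 and 30.5 with hTDP-43 and 34.6 and 34.7 with GFP, while in footprints they were 41.8 and 32.4, 45.5 and 58.4, and 42.4 and 42.2. Levels were scaled over all 14 libraries of a library type, and the fits over the libraries compared. Ratios of these levels, and of those below, therefore differ from the fitted values. Aars2 lay at 0.75 in MN1 footprints for hTDP-43 against GFP, and Eprs at 0.44 in neuron footprints for hTDP-43 against WT. With 2 or 3 cultures per group the median SE of a member was between 0.14 and 0.30 for the cytosolic class and between 0.26 and 0.41 for the mitochondrial class. At this number of cultures and this depth, many differences between genotypes could go uncalled, larger ones than these SEs included.

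With the replicate number, which stands for the date, as a block, 2 members were called in MN1 total mRNA for A315T against GFP. Dars had levels of 56.7 and 39.9 in the GFP cultures. Its levels were 48.3 and 34.2 with A315T and 49.4 and 31.5 with hTDP-43. It was lower with A315T on each date, but the dates differed more than the genotypes. In the fit, scaled apart from these levels, Dars fell by 0.36 (adjusted p = 0.0344, edgeR with the block, against a background of 1.68% lower). Without the block its adjusted p was 0.85, and without GFP replicate 2 it was 0.0264 with a value of -0.63. Vars had levels of 107 and 98.8 in the GFP cultures and of 157 and 124 with A315T, higher with A315T on both dates, while hTDP-43 gave 119 and 96.5. It rose by 0.31 (adjusted p = 0.0383, edgeR with the block, background 1.05% higher), compared with an adjusted p of 0.849 without it. In footprints of the same cultures Dars lay at -0.25 and Vars at 0.22, and neither passed. In neuron total mRNA Vars lay at 0.59 ± 0.33 for A315T against WT and Dars at 0.02, without a call.

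A list of 12 cytosolic members is linked to ATF4 in textbook accounts (Aars, Cars, Eprs, Gars, Iars, Lars, Mars1, Nars, Sars, Tars, Wars and Yars). Of these 12, 9 were higher and 1 lower in MN1 total mRNA relative to neurons, with a median of 0.92 (background 38.4% higher and 42.6% lower). Of the other 8 cytosolic members 7 were higher, with a median of 2.32. ATF4 binds DNA at composite elements, and 1 common form of these, TGATGCAA, was searched on both strands in promoters from 250 bases before to 50 after each gene's start (RefSeq, GRCm38.p6). It occurred in promoters of 1.03% of 27025 genes and in 4 of the 13 cytosolic members that had an entry, Aars, Iars, Tars and Yars. It occurred in 0 of 14 mitochondrial members, Lars2 included. With 1 base free, TGATGNAA, which includes the first form, the share was 4.51% of all genes. Gars was added to the 4 cytosolic members while the mitochondrial count stayed at 0. Promoters of Cars, Hars, Lars, Nars, Rars, Vars, Wars, Hars2 and Pars2 had no entry.

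In Iars and Yars the motif lay after the start. Of the promoters with the motif upstream of the start, those of Gars, with the form that has 1 base free, and Tars are shown, where it lay 30 and 15 bases before the start. The windows are given 5′ to 3′ on the strand of the gene, with the motif, read on the opposite strand, in capitals. The Gars window is chr6:55037960-55037989 on the plus strand and that of Tars is chr15:11399659-11399684 on the minus strand. The letters are a description of the sequence, and no binding was measured.
Gars: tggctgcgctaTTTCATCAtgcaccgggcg
Tars: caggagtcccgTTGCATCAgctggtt
The log2 difference of MN1 cells over neurons in total mRNA was 2.20 for Tars and 0.97 for Gars, and both were higher in footprints than in total mRNA in both cell types.

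Genes that work with the synthetases were listed alongside. The 3 scaffold genes of the multi-synthetase complex were all higher in MN1 total mRNA, Aimp2 by 2.72 ± 0.25, Aimp1 by 1.46 ± 0.14 and Eef1e1 by 0.39 ± 0.14. They were also higher in footprints than in total mRNA, Aimp1 by 1.37, Aimp2 by 1.36 and Eef1e1 by 0.94 in MN1 cells and by 1.13, 1.59 and 0.93 in neurons. Qrsl1 (1.68) and Gatb (0.93), subunits of the enzyme that makes glutaminyl-tRNA in mitochondria, were higher in MN1 total mRNA. Xpot, the export receptor for tRNA, was 3.76-fold higher in MN1 cells (log2 1.91 ± 0.12).

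Of 6 genes for a related synthetase-like enzyme, proofreading and recycling, 2 were higher and 2 lower in MN1 total mRNA, no larger a share than the background of 38.4% higher and 42.6% lower. Tarsl2, a paralogue of Tars, lay at -1.0 ± 0.21, opposite to Tars. Against the same background, 3 of 4 genes for the selenocysteine pathway were higher, and ATF4 and its targets counted 12 higher and 2 lower of 16. Atf4 itself lay at 1.14 ± 0.20, the serine synthesis genes Phgdh and Psat1 at 3.51 and 2.11, and Asns for asparagine synthesis at 0.58, while Slc7a11, a cystine transporter, was lower (-1.23) and so was Sesn2 (-0.65).

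Lars2 was set apart because it took a far larger part of the reads than any other member. In total mRNA it held 5.84, 6.58 and 7.21% of all assigned reads in the lowest, median and highest MN1 library and 3.09, 5.84 and 18.8% in neurons. The highest neuron libraries were WT replicate 3 (18.8%) and hTDP-43 replicate 3 (14.1%). By comparison all 20 cytosolic members together held 0.647 to 0.744% of MN1 reads and 0.131 to 0.261% of neuron reads. In footprints the share of Lars2 was 0.407, 0.646 and 1.25% in MN1 cells and 0.375, 0.992 and 1.71% in neurons. Lars2 was thus lower in footprints than in total mRNA, 7.68-fold in MN1 cells (log2 -2.94 ± 0.22, adjusted p = 8.42e-09, edgeR) and 8.31-fold in neurons (log2 -3.05 ± 0.43, adjusted p = 6.26e-06). The lowest value of any other member was -0.76, that of Pars2 in MN1 cells, which did not pass.

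Between the cell types Lars2 did not pass in total mRNA (-0.82 ± 0.43, adjusted p = 0.0944, edgeR), with a level between 11067 and 16100 in the MN1 libraries and between 8510 and 67414 in the neuron libraries. Without both neuron cultures that had a share above 10% the value was 0.13, and without WT replicate 2 of the neurons it was -1.09 and passed. In footprints Lars2 was lower in MN1 cells (-0.62 ± 0.28, adjusted p = 0.047, edgeR). This call was lost without 8 of the 14 libraries (MN1 A315T, GFP or hTDP-43 replicate 2, and neuron A315T or hTDP-43 replicate 1, WT replicate 2 or 3, or hTDP-43 replicate 3), with values of -0.67 to -0.34.

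Lars2 was not called in the 12 comparisons of genotypes by edgeR or DESeq2, and its unadjusted p was below 0.05 in 1 of them, MN1 footprints of A315T against GFP (-0.64 ± 0.25). With the replicate block it was lower in MN1 footprints for A315T against GFP (-0.62, adjusted p = 0.00425, edgeR, background 0.173% lower), with levels of 1423 and 1218 against 2435 and 1693. With the block it was also lower in neuron footprints for A315T against WT (-1.17, adjusted p = 0.0323, background 0.0631% lower), with levels of 5558, 1461 and 1096 with A315T and 2844 and 3068 with WT. In the latter the highest A315T library, replicate 1, had no WT partner of its date. In neuron total mRNA for A315T against WT the value was -1.46 ± 0.82, and it passed without WT replicate 2 (-2.28) and was 0.83 without WT replicate 3.

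The Lars2 gene (ENSMUSG00000035202) lies on chr9:123366940-123462664, plus strand. Its last exon, chr9:123461499-123462664, holds the 3′ end of the transcript, and the coding sequence ends at base 123461678. A stretch of 398 bases after that end, chr9:123461792-123462189, had copies of at least 50 bases and 90% identity at 17 other places on 12 chromosomes. It made up 398 of the 1166 bases of the last exon, and 10.3% of the summed exon length of the gene. The longest copy had 244 bases with 97.5% identity on chromosome 12. The other 20 exons of Lars2 had none. No exon of any member, Lars2 included, matched the mitochondrial rRNA genes, the 5S and 18S-like rRNA genes or the piece of 28S rRNA that were searched, at 30 bases and 90% identity or more. The full 28S rRNA was not searched, and the deposited counts give 1 number per gene, so which part of Lars2 the reads came from was not tested. The mitochondrial rRNA genes mt-Rnr1 and mt-Rnr2, and Gm26917 and Gm42418, which are known to collect rRNA reads, each had at most 0.074% of the reads in any library. Reads that matched annotated non-coding RNAs had been removed before counting, so these low shares do not bear on the source of the Lars2 reads.

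**Figure D5:**
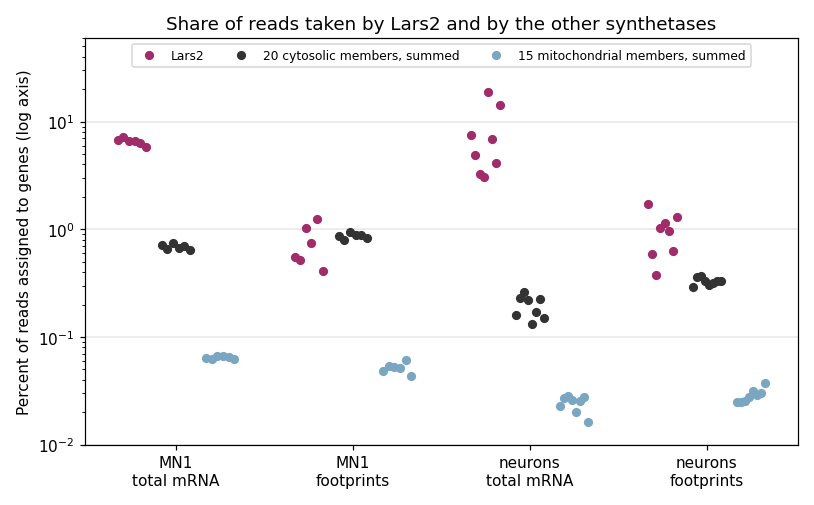
Percent of assigned reads in each library on Lars2, on the 20 cytosolic and on the 15 other mitochondrial synthetases (log axis), by cell type and library type. Lars2 lies at 3.09 to 18.8% in total mRNA and at 0.375 to 1.71% in footprints, while the cytosolic members stay below 1% in every library.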

How the data were processed

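Reads were processed by the authors, who deposited 1 table per library with raw read counts per gene. Per the file headers and the study's methods, adapters were clipped with cutadapt 1.8.1, reads that matched annotated non-coding RNAs were removed with Bowtie2, the rest were aligned to GRCm38 with TopHat2, and unique alignments on exons were counted with featureCounts 1.4.4 without a strand option. Of the members, 13 overlap another gene, so their counts can depend on how reads on both genes were treated. The study's methods do not state this.

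The counts were analysed with edgeR 4.0.16 in R 4.3.3 (filterByExpr with a minimum count of 10 and a minimum total of 15, TMM scaling, quasi-likelihood test, Benjamini-Hochberg threshold 0.05 over all genes tested). Cell types were compared within each library type, library types within each cell type, genotypes within each cell type and library type, and the footprint-to-mRNA difference between cell types as an interaction over all 28 libraries. Scripts were tested on counts simulated from these libraries, with a log2 change of 1 up or down in 200 genes. Of these, 76 to 86.5% were recovered for cell types and library types and 28.5% for the interaction. For A315T against GFP in MN1 footprints 7% were recovered, and for A315T against WT in neuron total mRNA 5.5%. Levels (RPKM) are reads divided by exon length and library size, scaled by TMM over the 14 libraries of a library type. Python 3.11.15 was used for summaries and BLAST+ 2.17.0 for sequence matches. The alternatives were DESeq2 1.42.0, its size factors, no filter on low counts, library sizes without Lars2 and control groups only. A replicate block and leaving out each culture were alternatives as well. For the interaction, all cultures of a replicate number and cell type were left out together. Leaving out both neuron cultures with a Lars2 share over 10% was chosen after seeing the data. The main fits of library types and of the interaction did not pair the footprint and total mRNA libraries of a culture. In these comparisons the block was the culture, which pairs them.

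Replicate numbers follow the dates in the sample titles, 2 for MN1 cells and 3 for neurons, so they pair the samples by date. The title of 1 library, the GFP footprints of MN1 replicate 1, gives a different year for the same day and month and was taken as the same date, on which the blocked MN1 footprint values rest. Deviations from the group means correlated between libraries of the same number at 0.39 to 0.52 in MN1 total mRNA, 0.30 to 0.38 in MN1 footprints, -0.17 to 0.52 in neuron total mRNA and 0.03 to 0.25 in neuron footprints. The labels do not say that cultures came from separate animals, so p-values measure the spread between these cultures, which may be technical.

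Values per library are given for the 3 cytosolic and 3 mitochondrial members with the largest absolute difference among those called, members called between genotypes, the highest and lowest member of each class, Gars, Kars and Lars2. Other members named by value were chosen after their values were seen. The members and lists were chosen with earlier results of these data known. No column of the deposited counts was left out. Some items of the lists are not reported here.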

Additional observations from a re-analysis of the deposited data

Results flagged for a closer look

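Of 88 sets of levels (the members described per library, Lars2, the class shares and their ratio, by cell type and library type), 2 held a library that stood far from the rest by Dixon's test, which flags about 1 in 20 sets by chance. Rars in MN1 total mRNA was lowest in hTDP-43 replicate 2 at 53.4, where the other 5 libraries lay between 68.2 and 74.4. All other cytosolic members but Cars and Sars also had their lowest MN1 total mRNA level in that library. Ears2 in neuron total mRNA was lowest in hTDP-43 replicate 2 at 1.48, where the other 7 libraries lay between 2.48 and 3.12. The value of 1.48 rested on 7 reads, so it carries a large counting error.

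The footprint-to-mRNA difference of 5 members differed between MN1 cells and neurons in edgeR's interaction test. On the log2 scale, MN1 cells minus neurons, the values were -1.23 for Sars2, -0.88 for Iars2, -0.65 for Mars1, -0.61 for Nars and -0.53 for Gars, with a median of -0.20 over all genes tested.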

How the results depend on the processing

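Of the counts and class ratios reported, 197 of their values under other settings stayed within 1.5 times the count, or within 1 SD of the ratio, as reported, while 26 moved and 3 reversed. Between the cell types, the control groups only (GFP against WT) gave 4 mitochondrial members higher and 0 members lower in total mRNA and 4 mitochondrial members higher in footprints, with fewer samples. Members lower in MN1 footprints numbered 2 without the filter and 2 with the replicate block. Without the filter 0 mitochondrial members were higher in MN1 footprints over total mRNA, and 1 member was lower in neurons. In the test of footprint-to-mRNA differences, members lower numbered 0 with DESeq2, 1 with DESeq2's size factors, 2 without the filter and 3 without the cultures of high Lars2 share, and 1 cytosolic member was higher with DESeq2. Kars then read 0.02 with DESeq2 and 0.0275 with its size factors. The replicate block called 1 member higher and 1 lower in MN1 total mRNA for A315T against GFP, and beside these and the 2 members lower in MN1 footprints it changed no count by more than 1.5 times.

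The log2 ratios of MN1 total mRNA, MN1 footprints, neuron total mRNA and neuron footprints became -3.31, 0.15, -5.11 and -1.45 with Lars2 counted as mitochondrial. They were 2.98, 3.63, 2.65 and 3.11 without Gars and Kars, and 2.50, 3.45, 2.24 and 2.93 as the difference of member medians. Per coding length the first 3 were 3.21, 3.82 and 2.83.

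Leaving out 1 culture gave 16 to 17 cytosolic and 11 mitochondrial members higher and 2 to 3 members lower between the cell types in total mRNA, and 15 cytosolic and 5 to 8 mitochondrial members higher and 1 to 4 lower in footprints. Between library types it gave 17 to 19 and 18 to 19 cytosolic members higher in MN1 cells and neurons, 1 to 2 and 4 mitochondrial members higher, and 1 to 2 and 0 to 3 members lower. For footprint-to-mRNA differences, where all cultures of a replicate number and cell type were left out together, it gave 0 to 1 cytosolic and 0 mitochondrial members higher and 0 to 6 lower. Between genotypes it gave 0 members, except 0 to 1 lower in MN1 total mRNA for A315T against GFP. Ratios ranged from 3.41 to 3.45, 4.02 to 4.10, 2.99 to 3.04 and 3.45 to 3.56 in the order above.

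Lars2 changed sign most often. Between the cell types it was 0.13 in total mRNA without the cultures of high Lars2 share. Its footprint-to-mRNA difference of 0.09 became -0.23 with the culture as block and -0.81 without those cultures. The difference was -0.37 without MN1 replicate 1 and -0.79 without neuron replicate 3. Leaving out 1 culture moved it between -1.14 and 0.43 in MN1 footprints for A315T against hTDP-43, between -1.08 and 0.51 for hTDP-43 against GFP (0.20 also above 0), between -1.16 and 0.0933 in neuron footprints for A315T against WT, between -1.03 and 0.22 for A315T against hTDP-43 (0.11 and 0.20 also above 0), and between -0.46 and 0.12 for hTDP-43 against WT (0.006 also above 0). In neuron total mRNA it moved between -2.28 and 0.83 for A315T against WT and between -1.43 and 1.75 for hTDP-43 against WT. The cause of these changes was not tested. Mitochondrial members were limited by depth in footprints, where several had under 10 reads in the shallowest libraries.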
